A study of Mus musculus with 312 samples.

Results

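The cells described here were adult mammary cells labelled as basal whose titles carried a number but no mark (2). They fell into an early block, cells 113 to 169, and a late block, cells 170 to 237, and the blocks were compared across all genes. The break was chosen by measured values of these same cells, above all those of Slpi and Krt17. The differences between the blocks are therefore descriptions and were not tested. Retained cells had 50000 or more assigned reads and 1000 or more genes, both counted without mitochondrial and ribosomal protein genes. This left 58 of 125 unmarked adult cells, of 312 cells in the whole series. They were 35 of 57 early cells and 23 of 68 late cells.

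Both blocks came from untreated adult FVB/NJ mice, and all cells were taken from the mammary gland. By the study's methods, basal cells were sorted from female mice as Lin- CD29hi CD24+ cells, where Lin- left out cells with endothelial, leukocyte or erythroid surface markers. They were captured on the Fluidigm C1, which isolates each cell in a chamber of its own and copies its polyadenylated RNA, and sequenced on a NextSeq 500 after Nextera XT library preparation. The labels do not say what the numbers or the mark (2) stand for, and they name no animals, so that block, animal, capture and sequencing run cannot be told apart. Each block was therefore treated as 1 sample. The 81 retained adult cells marked (2) and the 71 retained pregnancy cells, from mice of the same strain, are given beside them as a reference.

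Basal cells form the outer layer of the mammary duct, where they rest on the basement membrane and contract to expel milk. They combine an epithelial keratin programme with smooth muscle contractile proteins and secrete much of the matrix beneath them. Immediate early genes, of which Fos is the best known, are those that cells switch on within minutes of a stimulus.

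Depth differed between the blocks. Retained early cells had 53686 to 396385 assigned reads, with a median of 113074 (interval 91505 to 149308). Retained late cells had 51464 to 227195, with a median of 83935 (interval 64855 to 108075). After each cell was thinned to 50000 reads, the median was 2419 genes per cell in the early block (interval 2110 to 2626) and 1917 in the late block (interval 1557 to 2484), and the intervals overlap. Mitochondrial genes took 2.71 to 79.5% of all reads in early cells (median 15.4%) and 7.88 to 29.2% in late cells (median 16.6%). A mitochondrial share of at least 25% was present in 10 of 35 early and 3 of 23 late cells. The cells left out differed in kind. Of the 22 early cells left out, 12 had at least 50000 reads in all genes, and in 16 mitochondrial genes took more than all others together. Of the 45 late cells left out, 3 and 20 did so. The plot of depth by cell number also shows a run of shallow cells in the late block, from cell 199 to cell 215. Intervals are 95% intervals. Those of shares and of medians over cells describe the draw of cells. Those of read sums describe the counting of reads, which carry no molecular identifiers, and none covers the spread between animals.

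**Figure D1:**
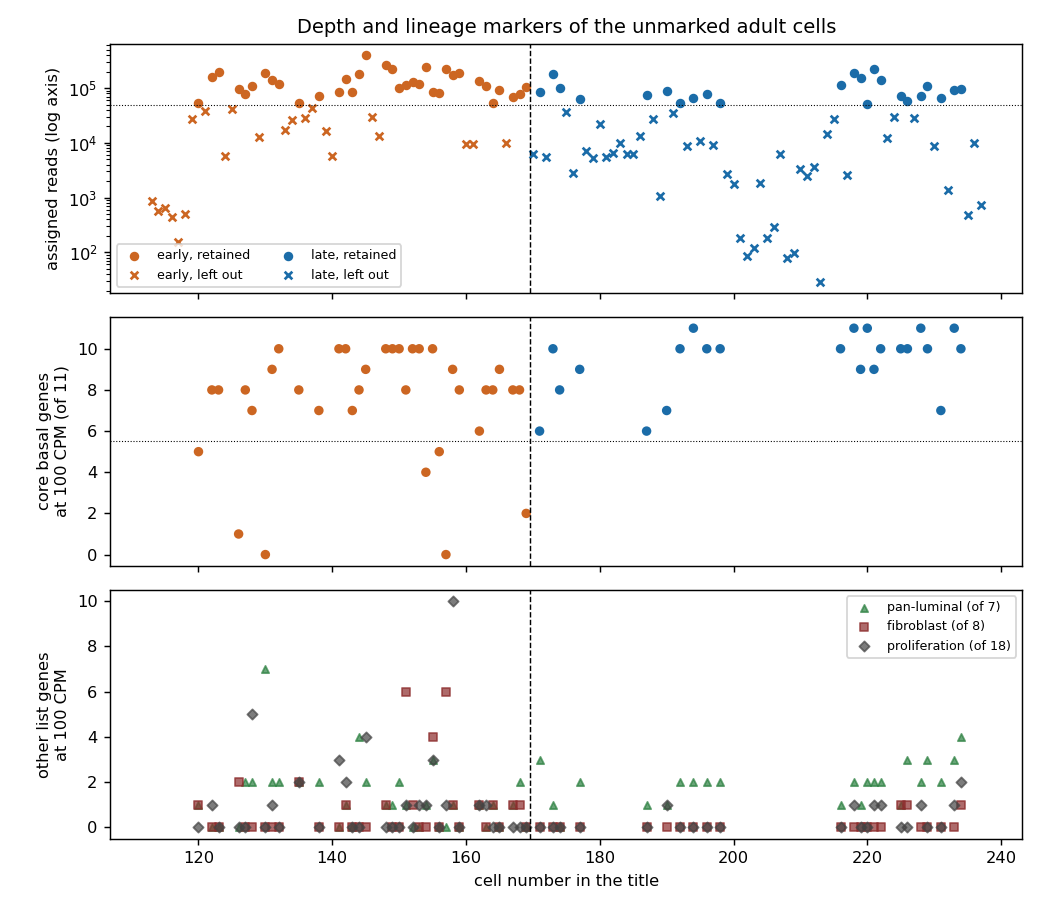
Assigned reads (top, log axis), core basal genes at 100 CPM (middle) and genes of 3 other lists at 100 CPM (bottom) are plotted for the unmarked adult cells against their number (early orange, late blue in the upper panels; circles retained, crosses left out), with the break between 169 and 170 as a dashed line. All 7 retained cells with at most 5 core basal genes lie in the early block.

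The label was checked against 11 core basal genes, which are basal keratins, contractile genes, the transcription factor Trp63 and the chemokine Cxcl14. Krt17, by which the break was chosen in part, is among them. At least 6 of them reached 100 CPM, counts per 1000000 assigned reads of the cell, in 28 of 35 early cells (80%, interval 63.1 to 91.6%) and in 23 of 23 late cells (100%, interval 85.2 to 100%). The number per cell ranged from 0 to 10 in early cells (median 8) and from 6 to 11 in late cells (median 10). The 7 early cells below 6 genes were cells 120, 126, 130, 154, 156, 157 and 169, and they fell short of this check of their label. Some did so narrowly, since cells 120 and 156 had 5 core basal genes and cell 154 had 4. Fewer early cells were below 6 genes at a level of 10 CPM. Cell 130 had 0 core basal genes and 7 of 7 pan-luminal genes. Cell 157 had 0 core basal genes and 6 of 8 fibroblast genes, and cell 169, the last early cell, had 2 core basal genes and the highest early level of Cd36. Cells 135, 150 and 155 had at least 8 core basal genes together with at least 3 milk protein genes, and their mitochondrial shares were 43.8%, 53.0% and 35.0%. Doublets were not called, and their part in these cells was not tested. Where 50% or more of the early sum of a gene named below lay in the 7 cells, its value without them is given too.

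Of all genes, 4636 averaged 50 CPM or more in the early or the late cells and were compared. The measure is the log2 ratio of mean CPM in late over early cells, with a pseudocount of 10 CPM, which understates differences of low genes. At least 4-fold higher in late were 520 genes (11.2%), and at least 4-fold lower were 823 genes (17.8%). At a limit of 2-fold, 1159 genes (25%) were higher and 1558 (33.6%) lower. The median absolute log2 ratio was 1.26 (interval 1.22 to 1.31), and the median signed ratio was -0.19 (interval -0.26 to -0.13). Both intervals are rank intervals over the genes compared and do not describe the draw of cells. Much of this lay in few cells, since without the highest cell of each block for each gene the counts at 4-fold were 153 higher and 451 lower. For the same genes, the median absolute ratio was 0.73 for early over marked cells and 0.77 for late over marked cells. It was 0.77 for early and 0.85 for late over pregnancy cells. These comparisons share their reference cells, and the marked and pregnancy sets hold more cells than either block. The genes entered by a high mean in early or late cells alone, which favours large ratios between these blocks. The value of 1.26 therefore cannot be set directly beside those to marked and pregnancy cells. By exon length, the median log2 ratio was -0.05 in the shortest of 4 equal groups of genes, -0.42 and -0.23 in the next ones and -0.15 in the longest.

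Slpi, which encodes a secreted inhibitor of serine proteases such as neutrophil elastase, ranked first by the rule for named genes. The break was chosen in part by Slpi, so its rank and its difference between the blocks are no finding. In early cells it ranged from 0 to 21466 CPM with a median of 14.7 CPM, and in late cells from 27.4 to 50877 CPM with a median of 4992 CPM. Of 23 late cells 23 lay above the early median, and 5 of 35 early cells lay above the late median, so the blocks overlap. Mean levels were 1609 CPM early and 13331 CPM late, a log2 ratio of 3.04, which was 3.49 without the highest cell of each block and 2.75 without the 7 early cells of few core basal genes. Slpi reached 100 CPM in 11 of 35 early cells (31.4%, interval 16.9 to 49.3%) and in 20 of 23 late cells (87.0%, interval 66.4 to 97.2%). In marked cells the share was 86.4% (interval 77.0 to 93.0%), and in pregnancy cells it was 5.63% (interval 1.56 to 13.8%). The late share thus lay near that of marked cells, and the early share lay between marked and pregnancy cells. At 1000 CPM the counts were 8 of 35 early and 19 of 23 late cells. The promoter window of Slpi is shown because this gene ranked first. It is taken from RefSeq (GRCm38.p6, chr2:164356458-164356757, minus strand), runs 5′ to 3′ from 250 bases before the start of the gene to 50 bases after it, and is in lower case throughout because it holds neither motif searched below.
Slpi promoter: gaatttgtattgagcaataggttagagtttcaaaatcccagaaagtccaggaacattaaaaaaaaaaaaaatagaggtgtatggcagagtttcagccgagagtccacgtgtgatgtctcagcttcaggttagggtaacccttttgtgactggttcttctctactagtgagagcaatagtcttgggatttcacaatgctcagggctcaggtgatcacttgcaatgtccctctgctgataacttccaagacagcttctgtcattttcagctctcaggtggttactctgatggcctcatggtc

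Near the break, the levels of Slpi differed from cell to cell. The last retained early cells were 164, 165, 167, 168 and 169, with 0, 601, 14.7, 13.1 and 9.66 CPM. The first retained late cells were 171, 173, 174, 177 and 187, with 12522, 27.4, 88.5, 4992 and 6866 CPM. So 1 of these 5 early and 3 of these 5 late cells were at 100 CPM. At the read minimum, cells 125 and 137 lay just below it with 41513 and 42388 reads and 72.3 and 495 CPM of Slpi, and cells 220 and 198 lay just above it with 51464 and 53360 reads and 58.3 and 27624 CPM.

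Krt17, a basal keratin, differed less. It ranged from 0 to 9481 CPM in early cells with a median of 335 CPM, and from 0 to 26651 CPM in late cells with a median of 2561 CPM. The log2 ratio of the means (2067 and 5642 CPM) was 1.44. At 100 CPM it was found in 22 of 35 early cells (62.9%, interval 44.9 to 78.5%) and in 22 of 23 late cells (95.7%, interval 78.1 to 99.9%). Without the 7 early cells of few core basal genes the early share was 78.6%. In marked cells it was 92.6% and in pregnancy cells 53.5%. The cells beside the break did not separate by Krt17, with 279, 1661, 2595, 889.9 and 0 CPM before it and 2752, 126, 24859.6, 2328 and 0 CPM after it.

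**Figure D2:**
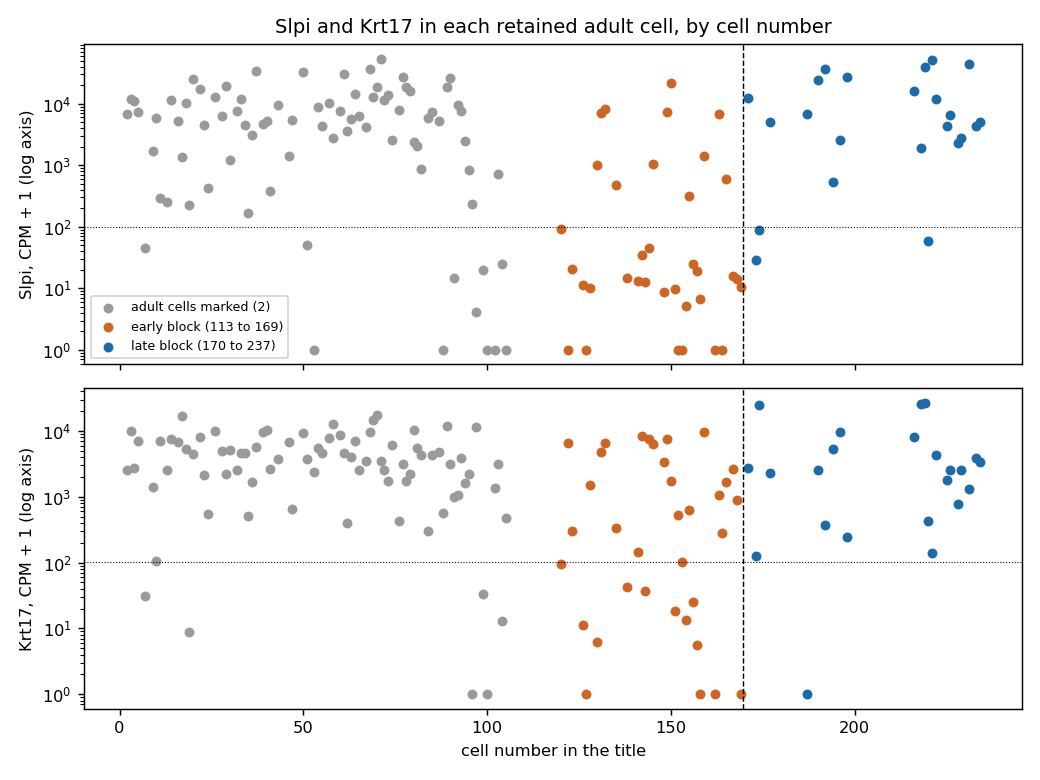
CPM + 1 of Slpi (top) and Krt17 (bottom) on log axes for each retained adult cell (marked grey, early orange, late blue) against the number in its title, with the break and the level of 100 CPM marked. Slpi reaches that level in 11 of 35 early and 20 of 23 late cells.

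The rule for named genes required the same direction without the highest cells and as a mean of log values, so that this agreement is no finding. The other genes named as higher in late are described by role, a grouping made for description alone. Dst, Lmod1, Fhod3 and Ltbp2 encode cytoskeletal, contractile or matrix proteins. Dst, a plakin that links keratin filaments to hemidesmosomes, ranged from 0 to 2694 CPM in early cells (median 172) and from 42.3 to 5339 CPM in late cells (median 1798). Lmod1, an actin nucleator of smooth muscle, had medians of 0 and 154 CPM in early and late cells and reached 100 CPM in 1 and 12 cells. Fhod3, an actin-assembling formin of muscle, did so in 2 early and 14 late cells, with highest levels of 130.4 and 3711 CPM. For Lmod1 and Fhod3 over 50% of late cells were at 100 CPM, so that the late level was not held by a few cells. Ltbp2, a microfibril-associated matrix protein, had medians of 0 and 432 CPM, and 22 of 23 late cells lay above the early median. Cacna2d1 and Rbpms have other roles. Cacna2d1, an auxiliary subunit of voltage-gated calcium channels, had means of 78.3 and 431 CPM. Its log2 ratio of 2.32 was 0.36 when cells needed 100000 reads and 1500 genes, which left 21 early and 8 late cells. Rbpms, an RNA-binding protein of smooth muscle cells, had means of 203 and 869.7 CPM.

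Fos, Atf3 and Bhlhe40 are transcription factors that respond to stimuli. Fos ranged from 0 to 34368 CPM in early cells (median 235) and from 194 to 26228 CPM in late cells (median 2721), and it reached 100 CPM in 22 of 35 and 23 of 23 cells. Its log2 ratio of 1.44 was 0.48 with the deeper cells alone. Atf3, a stress-induced factor, had medians of 25.6 and 962 CPM and reached 100 CPM in 11 early and 18 late cells. The early and late ranges of both genes overlap. Bhlhe40, a repressor linked to the circadian clock and to hypoxia, had medians of 11.9 and 115 CPM. Late cell 187 held 7398 CPM of Bhlhe40, and the log2 ratio of 3.34 was 2.56 without the highest cells.

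The rest of the genes named as higher have other roles. Dkk3, a secreted protein of the Dickkopf family, had means of 38.7 and 673 CPM (log2 ratio 3.81), and 18 of 23 late cells lay above the early median. Pde4b, a phosphodiesterase that degrades cyclic AMP, had medians of 231 and 2390.4 CPM. Rab20, a small GTPase of vesicle traffic, had a highest early level of 6.70 CPM and reached 100 CPM in 9 of 23 late cells. So Rab20 was at 100 CPM only in late cells of these blocks. Vamp8, a SNARE protein of secretory vesicles, had medians of 7.32 and 161 CPM. Paf1, a subunit of a transcription elongation complex, reached 100 CPM in 5 late cells, and its log2 ratio of 5.30 was 2.14 as a mean of log values.

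Of the 15 genes named as lower in late, those of the secretory pathway and of lipid handling come first. Tmem263, a small membrane protein, ranged from 0 to 12214 CPM in early cells (median 789.6) and from 0 to 898 CPM in late cells (median 11.9). It reached 100 CPM in 24 of 35 early cells (68.6%, interval 50.7 to 83.1%) and in 3 of 23 late cells (13.0%, interval 2.78 to 33.6%). Ssr3, a subunit of the translocon-associated complex of the endoplasmic reticulum, had medians of 709.9 and 49.3 CPM. Both genes were common in early cells and low in most late cells. Mfge8, the milk fat globule protein that bridges apoptotic cells to phagocytes, had medians of 590.1 and 27.8 CPM. Cell 120, a cell of 5 core basal genes, held the highest level of Mfge8, 36953 CPM, and the log2 ratio of -3.28 was -2.25 without the 7 such cells. Cd36, a fatty acid transporter, had means of 2153 and 15.9 CPM, with a highest late level of 68.9 CPM. Of its early sum 87.1% lay in the 7 cells, and without them the log2 ratio was -3.78 in place of -6.38. Pitpnc1, a lipid transfer protein, had medians of 17.7 and 0 CPM.

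Matrix genes named as lower were Col11a1, Nid1 and Dcn. Col11a1, a fibrillar collagen, reached 100 CPM in 13 early cells and 1 late cell. Nid1, which cross-links laminin and collagen IV in basement membranes, ranged from 0 to 4751 CPM in early cells and from 0 to 18.7 CPM in late cells. Its log2 ratio was -4.49 without the highest cells and -5.13 without the 7 cells of few core basal genes. Dcn, a small proteoglycan typical of fibroblasts, had means of 1079.5 and 64.5 CPM, and 62.0% of its early sum lay in the 7 cells. The ratio of Dcn was -3.87 with these cells and -2.81 without them. The difference of Nid1 thus did not rest on the 7 cells of few core basal genes, and that of Dcn did so in part.

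Among the remaining genes named as lower, Actg1, cytoplasmic actin, had medians of 638 and 46.3 CPM, and 0 of 23 late cells lay above the early median. Ctnnd2, a catenin, had medians of 55.5 and 0 CPM. Ccnd1, the D-type cyclin of entry into S phase, was at 100 CPM in 12 early and 2 late cells. Cct8, a chaperonin subunit, had medians of 857 and 6.69 CPM. Matr3, a nuclear matrix protein, had means of 931 and 138 CPM, and Mocs2, an enzyme of molybdenum cofactor synthesis, had means of 167 and 10.9 CPM. Reads of Actg1, Cct8 and Matr3 may be split with near-identical copies in the genome, so that their levels are uncertain.

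**Figure D3:**
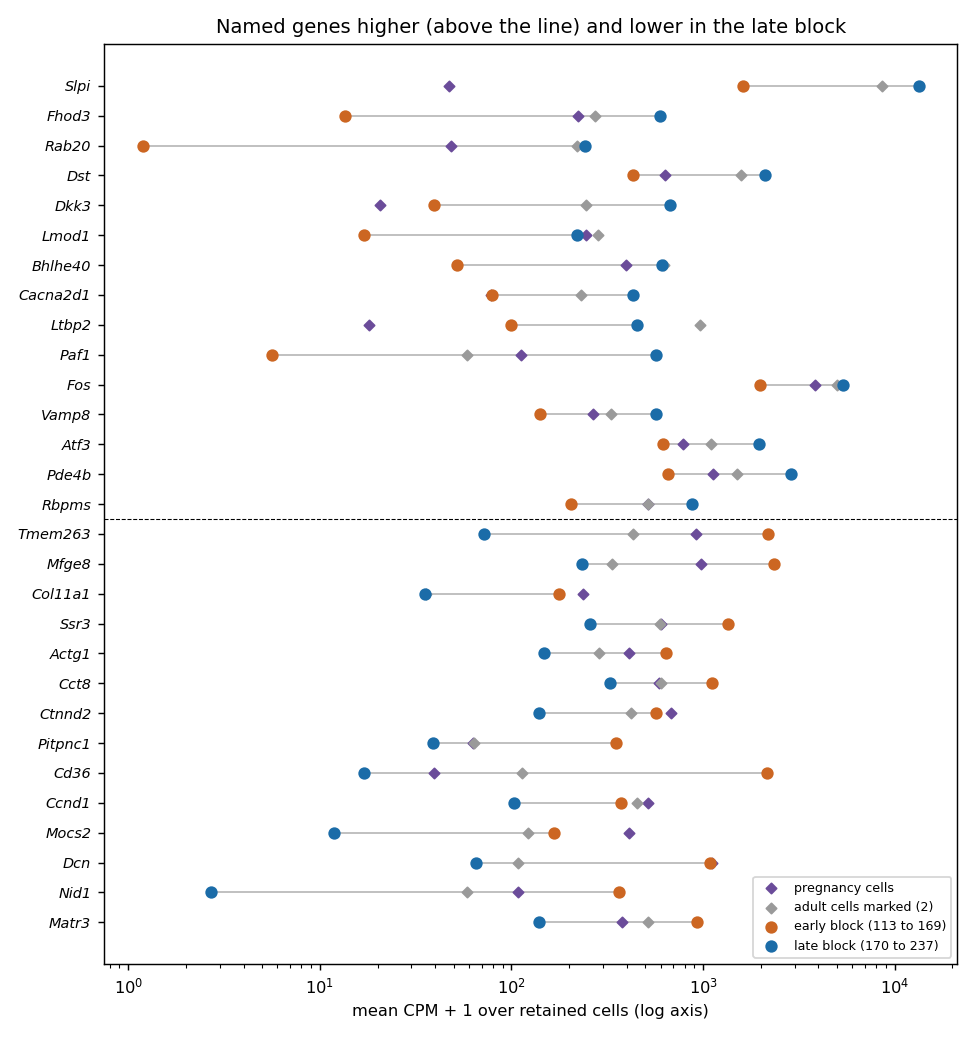
Mean CPM + 1 (log axis) of the 15 genes named as higher (above the dashed line) and 14 of the 15 named as lower in late, in early (orange), late (blue), marked (grey) and pregnancy cells (purple). For 12 of all 15 higher and 14 of all 15 lower genes the marked mean lies between the early and late means. The choice of genes far apart between early and late favours this, and it was not counted over all genes compared.

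The marked and pregnancy cells took no part in choosing these 30 genes. The genes were chosen as far apart between early and late, however, which favours means of other cells that lie between. On the log2 scale, the late mean was nearer than the early mean to the marked mean for 13 of the 15 genes higher in late and for 8 of the 15 lower in late. Against pregnancy, the early mean was the nearer for 8 of the first and 11 of the second. Such counts were not made over all genes compared. There the median absolute ratio to marked cells was 0.73 for early and 0.77 for late cells. Slpi, for example, was at 8546 CPM in marked and 46.2 CPM in pregnancy cells, and Ltbp2 was at 958 and 17.0 CPM. Among genes lower in late, Dcn was at 107 CPM in marked and 1113 CPM in pregnancy cells. Col11a1 was at 34.9 and 235 CPM, beside 176 CPM in early and 34.2 CPM in late cells.

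Counted per cell, the named genes show how far the blocks overlap. Early cells had 0 to 10 of the 15 higher genes at 100 CPM (median 4) and late cells had 4 to 13 (median 10). Slpi, by which the break was chosen in part, is among these 15. Of the 15 lower genes, early cells had 3 to 13 (median 7) and late cells 0 to 9 (median 2). The number of higher minus lower genes was above 0 in 6 of 35 early cells and in 23 of 23 late cells, a separation that the choice of genes favours. The lowest late difference was 3, and 2 early cells reached it. The difference was above 0 in 72 of 81 marked cells and in 13 of 71 pregnancy cells, which were not used in the choice.

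**Figure D4:**
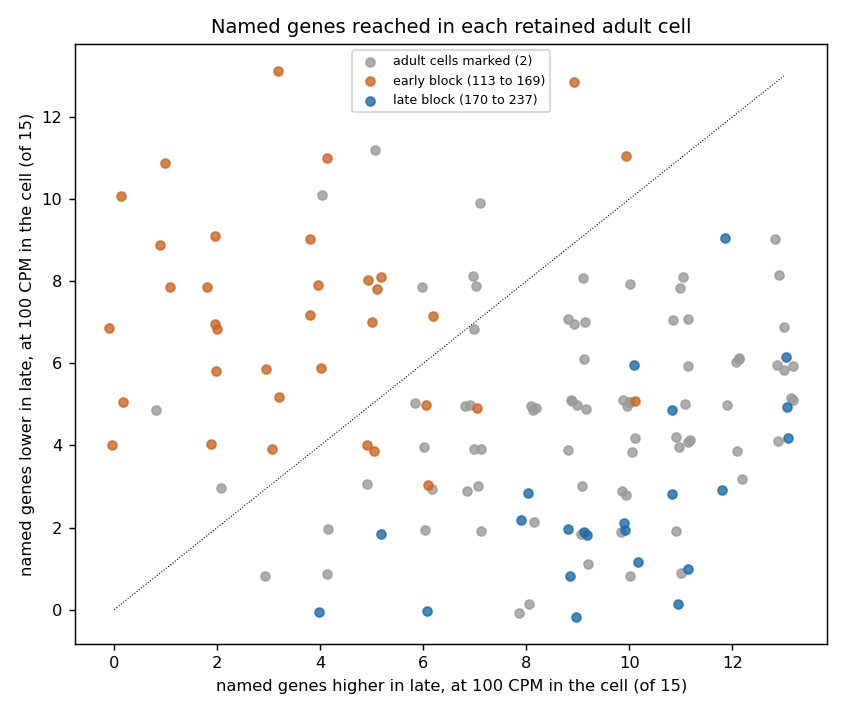
Retained adult cells are placed by how many of the 15 genes named as higher (x axis) and of the 15 named as lower in late (y axis) reached 100 CPM, with small offsets so that points do not hide each other and a dotted line where both numbers are equal. More higher than lower genes are found in 23 of 23 late cells, 6 of 35 early cells and 72 of 81 marked cells.

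The basal programme was present in both blocks, and several of its genes were higher in late. Of the 11 core basal genes, 5 were at least 2-fold higher and 0 at least 2-fold lower, beside 25% and 33.6% of all genes compared, and their median log2 ratio was 0.81 beside -0.19 for all genes. The 5 were Trp63, a regulator of basal identity (21.1 CPM early and 179 CPM late), Cxcl14 (130.5 and 660.3 CPM), Krt5 (232 and 778 CPM), Krt17 and Mylk, myosin light chain kinase (1291 and 3302 CPM). Krt17 took part in choosing the break, so its place among the 5 is no finding. Krt14 and Acta2, smooth muscle actin, had log2 ratios of 0.60 and 0.29. The summed level of the list ranged from 154 to 59631 CPM in early cells (median 25149, interval 15774 to 38361) and from 10019.7 to 100117 CPM in late cells (median 38280.1, interval 31096 to 47323). The intervals of the medians overlap. Without the 7 early cells of few core basal genes, a cell set chosen by these same genes, the median ratio was 0.51.

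Among 16 smooth muscle contractile genes, 5 were at least 2-fold higher (Lmod1, Synpo2, Mylk, Flna and Tpm2) and 0 lower, beside 25% and 33.6% of all genes. Without the 7 early cells the counts were 4 higher and 1 lower (Smtn, smoothelin, at -1.14), with a median ratio of 0.21 in place of 0.48. Synpo2, an actin-binding protein, had a log2 ratio of -0.02 without the highest cells and so was not 2-fold higher there. Tpm2, a tropomyosin, had medians of 861 and 2944 CPM, and Flna, an actin cross-linker, had 477 and 1725 CPM. Oxtr, the oxytocin receptor through which these cells receive the signal to contract, reached 100 CPM in 9 of 35 early and 16 of 23 late cells. Its means of 849 and 908 CPM were nevertheless close, with 20212 CPM in early cell 163, and without the highest cells the log2 ratio was 1.46.

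Keratins, junction genes and transcription factors differed in both directions, read beside 25% of all genes 2-fold higher and 33.6% lower. Krt17, counted here too, took part in choosing the break. Of 11 genes for basal keratins and junctions, 4 were at least 2-fold higher (Krt5, Krt17, Dsp and Cdh3) and 2 lower. The latter were Krt15, a keratin of basal cells, at 227 CPM in early and 22.3 CPM in late cells, and Cdh1, E-cadherin, of which 89.1% of the early sum lay in the 7 cells of few core basal genes. Without these cells Cdh1 was no longer 2-fold lower, with a log2 ratio of -0.12, and the list had 3 higher and 1 lower of 10 genes compared. Of 10 basal transcription factors, Trp63 and Egr2 were at least 2-fold higher and Snai2, Mef2c and Tbx3 lower. Snai2, a repressor of epithelial adhesion genes, had means of 284 and 95.2 CPM, and 10 of 35 early and 4 of 23 late cells were at 100 CPM. Epcam, an epithelial adhesion molecule, was higher in late, with medians of 95.9 and 453 CPM.

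Of 19 immediate early genes compared, 9 were at least 2-fold higher in late and 0 at least 2-fold lower, beside 25% and 33.6% of all genes, with a median log2 ratio of 0.92 that stayed between 0.57 and 1.42 under the alternatives tried. Without the 7 early cells 9 were higher and 1 lower. Their summed level ranged from 242 to 58309 CPM in early cells (median 5687, interval 4227 to 7374) and from 4313 to 66610.1 CPM in late cells (median 15462, interval 9382 to 22051). Marked cells had a median of 13218 CPM. The 9 were Fos, Fosb, Jun, Junb, Egr2, Ier2, Atf3, Dusp1 and Btg2. Junb, an AP-1 subunit, reached 100 CPM in 9 early and 18 late cells, and Dusp1, a phosphatase of MAP kinases, had means of 93.9 and 401 CPM. Ier2 had the largest ratio of the list, 4.14, but cell 174 held 23492 CPM, and without the highest cells the ratio was 0.68. Egr1, a zinc finger factor, was at 100 CPM in 18 of 35 early and 22 of 23 late cells, with a log2 ratio of 0.68. At least 3 genes of the list reached 100 CPM in 32 of 35 early and 23 of 23 late cells, so genes of the list were present in most cells of both blocks. The windows of Fos and Atf3 are shown because these genes are on the list and among the named genes. The motifs searched, on both strands, were the core of the cyclic AMP response element (TGACGT) and the AP-1 site (TGANTCA). Capitals mark this core, which in Atf3 lies on the opposite strand of the window. Both run 5′ to 3′ like that of Slpi, at chr12:85473640-85473939 (plus strand) for Fos and chr1:191183284-191183583 (minus strand) for Atf3.
Fos promoter: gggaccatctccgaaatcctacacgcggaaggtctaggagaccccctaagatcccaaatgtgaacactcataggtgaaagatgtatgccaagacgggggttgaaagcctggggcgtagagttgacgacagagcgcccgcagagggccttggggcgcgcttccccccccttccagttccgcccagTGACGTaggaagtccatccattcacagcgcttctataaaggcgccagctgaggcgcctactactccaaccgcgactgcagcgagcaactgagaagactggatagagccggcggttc
Atf3 promoter: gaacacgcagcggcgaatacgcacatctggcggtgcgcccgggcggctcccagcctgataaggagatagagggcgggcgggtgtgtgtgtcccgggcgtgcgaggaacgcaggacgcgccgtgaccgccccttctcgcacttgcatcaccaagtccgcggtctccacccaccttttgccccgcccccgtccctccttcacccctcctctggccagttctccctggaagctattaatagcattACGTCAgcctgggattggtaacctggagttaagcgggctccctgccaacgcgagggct

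The core of the cyclic AMP response element occurred in 8 of 20 windows of 16 immediate early genes (40%), beside 7.51% of all 32851 windows. It was found in 3 of 15 windows of genes named as higher and in 0 of 11 windows of genes named as lower in late. Fos and Atf3, with 1 match each, belong to both the immediate early and the higher genes, and Pde4b alone gave 4 of the 15 windows. The difference between these sets was not tested. The AP-1 site occurred in 0 of 20 immediate early windows, beside 7.81% of all windows. These are matches of letters, and binding was not measured.

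Stress-related lists were mixed. Their counts are read beside the 25% of all genes that were 2-fold higher and the 33.6% that were lower. Of 17 heat shock and chaperone genes, 4 were at least 2-fold higher (Hspa1a, Hspa1b, Hspb1 and Dnajb1) and 3 lower (Hsph1, Dnajb4 and Cryab). Reads of Hspa1a and Hspa1b, which are near-identical, may be split between them. Of 11 p53 and apoptosis genes, Sesn1, Ddit3, Bcl2l11 and Trp53inp1 were higher and Trp53 and Mdm2 lower. Trp53, the gene of p53, had means of 714 and 142 CPM, and Mdm2, the ligase that degrades p53, had 416 and 84.6 CPM. Ddit3, a factor of the unfolded protein response, reached 100 CPM in 1 early and 5 late cells. The list of that response had 1 higher and 1 lower of 10 genes, and the oxidative stress list 0 higher and 5 lower of 16. Of 8 steroid response genes 0 differed 2-fold, and Mt1, a metallothionein, had medians of 12248 and 24515 CPM.

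Of 22 matricellular and secreted matrix genes, 6 were at least 2-fold higher and 10 lower, beside 25% and 33.6% of all genes, so the share higher was near that of all genes. Without the 7 early cells the counts were 6 and 8 of 20. Postn, a matricellular protein, had medians of 422 and 1853 CPM, and Prelp, a proteoglycan of basement membranes, had 9.66 and 225 CPM. Eln, elastin, had means of 103 and 429 CPM, and Tnc, tenascin C, was at 100 CPM in 0 early and 5 late cells. Together with Ltbp2 and Ltbp4 these are the 6. Sparc, a collagen-binding protein, was lower, with medians of 1716 and 835 CPM, and so were Sparcl1, Spp1, Fn1, Fbln1, Fbn1, Mfge8, Dcn, Lum and Bgn. For Fn1, fibronectin, the direction turned without the highest cells, with a log2 ratio of 0.13 in place of -3.70.

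Collagens and adhesion genes lay near the shares of all genes, 25% higher and 33.6% lower. Among 13 collagens, 3 were at least 2-fold higher (Col12a1, Col16a1 and Col17a1) and 3 lower (Col1a2, Col3a1 and Col7a1). Of the early sums of Col1a2 and Col3a1, 96.8% and 68.7% lay in the 7 cells, and without these cells their early means were 8.90 and 79.0 CPM. Col17a1, a hemidesmosomal collagen, had medians of 25.6 and 195 CPM. Among 15 basement membrane and integrin genes, 3 were at least 2-fold higher, Dst and Hspg2 among them, and Nid1, Lamc1, Itga6 and Lamb3 were lower. Itga6, the integrin subunit of hemidesmosomes, had medians of 518 and 250.2 CPM. Thus Dst and Col17a1 were higher and Itga6 lower among genes of the hemidesmosome.

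Counts of signalling genes are read beside the 25% of all genes that were 2-fold higher and the 33.6% that were lower, and no difference between pathways was tested. Of 6 EGF family genes, 5 were at least 2-fold lower in late (Egfr, Areg, Ereg, Tgfa and Nrg1) and 0 higher. The list median was -2.37, but -0.40 as a difference of mean logs. The median summed level was 463 CPM in early cells (interval 261 to 1308) and 201 CPM in late cells (interval 59.6 to 1066). These intervals overlap. Nrg1, a neuregulin, had means of 1399.9 and 211 CPM and reached 100 CPM in 13 early and 6 late cells, with 20011 CPM in cell 168. Areg, amphiregulin, had 660 reads in early and 0 reads in late cells, at least 105-fold lower per assigned read against a floor of 3 reads over the late block. Such bounds, here and below, describe the counting of reads and not the draw of cells. Of its early sum 76.1% lay in the 7 cells of few core basal genes, and without them its early mean was 33.6 CPM. For Tgfa, a ligand of the EGF receptor, the log2 ratio of -2.07 was 0.52 without the highest cells.

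Of 13 Wnt pathway genes, 5 were at least 2-fold higher and 3 lower. The secreted factors Dkk3 and Sfrp1 and the receptor Fzd7 were higher. The ligands Wnt5b and Rspo1 were so through 1 late cell each at 100 CPM. Wnt5a, Tcf7 and Ccnd1 were lower. Of 9 TGF-beta and BMP genes, Tgfb2, Tgfbr1 and Id1 were higher and Tgfbr3 lower. Tgfbr3, the co-receptor betaglycan, had medians of 559 and 131 CPM. Of 5 Notch pathway genes Jag2 and Hes1 were lower, and Hes1, a target of Notch, reached 100 CPM in 15 of 35 early and 4 of 23 late cells.

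**Figure D5:**
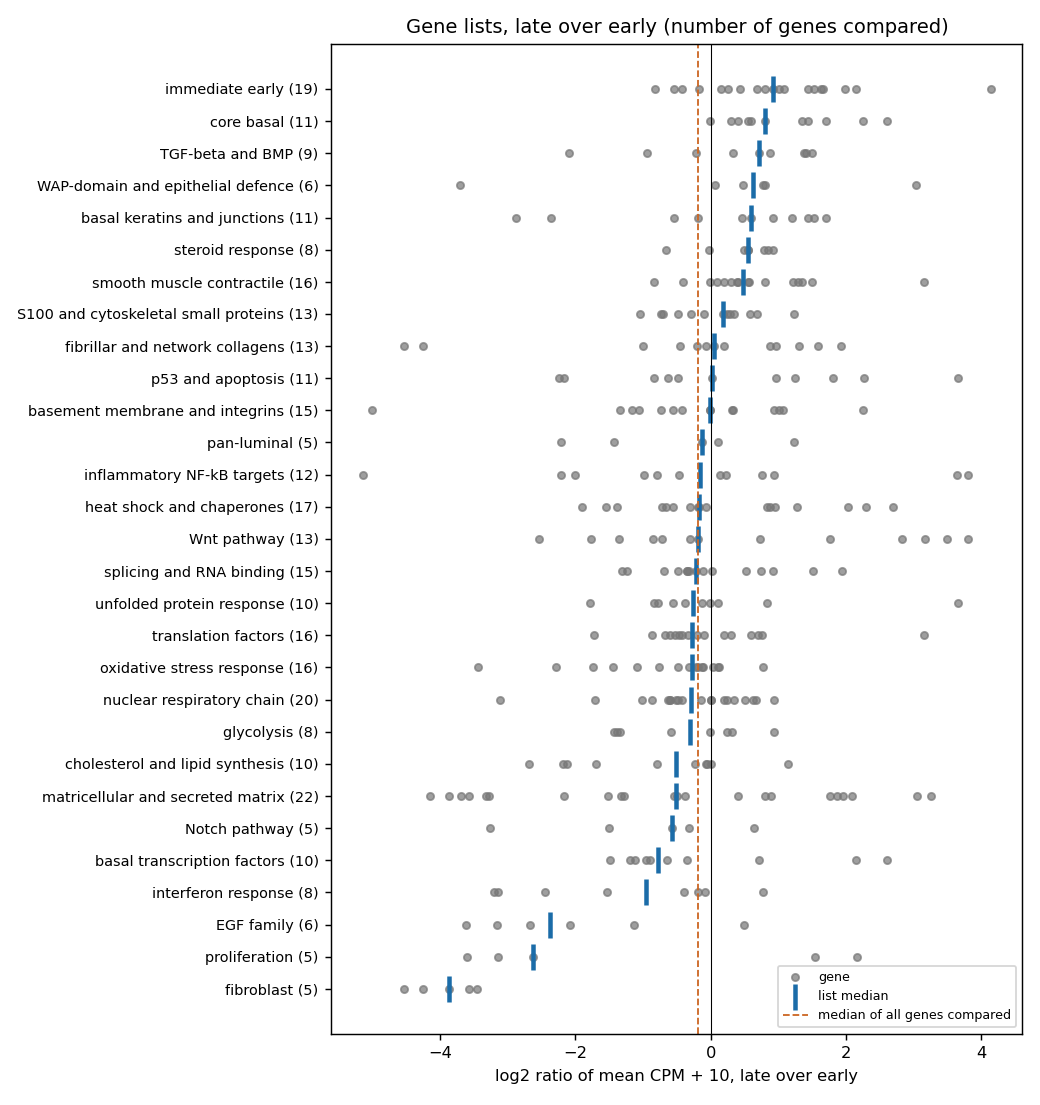
Log2 ratios of mean CPM + 10, late over early, are plotted for the genes compared (grey points) of each list with 5 or more such genes, with the list medians (blue bars) and, as a dashed line, the median of all 4636 genes compared, -0.19. The fibroblast list (median -3.87) lies far to the left and the immediate early (0.92) and core basal (0.81) lists to the right. As differences of mean logs, which are not plotted, these medians were -0.88, 1.42 and 1.58.

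Markers of fibroblasts, mature luminal cells, milk, fat and vessels were higher in early cells and were held by few of them. Pan-luminal genes went both ways. The luminal progenitor and pericyte lists had 1 gene compared each, which was higher in late. At least 3 of 8 fibroblast genes were at 100 CPM in 3 of 35 early cells (8.57%, interval 1.80 to 23.1%), which were cells 151, 155 and 157. They were so in 0 of 23 late cells, a count that allows a share of 13.0% by the limit of 3 counts and of 14.8% by the exact interval. All 5 fibroblast genes compared were at least 2-fold lower in late, beside 33.6% of all genes. The summed level of all 8 was 0 to 38174 CPM in early cells (median 57.2) and 0 to 673 CPM in late cells (median 0). Col1a2, a fibrillar collagen, had 1462 reads in early and 0 reads in late cells, at least 233-fold lower against the floor, and most of its early sum lay in the 7 cells. That bound leaves out the draw of cells. Without the 7 cells 3 fibroblast genes were compared, of which 3 were at least 2-fold lower, and the early summed level was 779 CPM on average in place of 1793 CPM.

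Mature luminal genes gave the lowest list median, -5.34 over 3 genes and -5.37 with Areg at its bound, but it was -1.16 as a difference of mean logs. Their early summed level of 995 CPM was 149 CPM without cell 130. Prlr, the prolactin receptor, and Ly6d, a surface protein, had early means of 435 and 407 CPM, but 82.3% and 99.0% of these sums lay in the 7 cells, and cell 130 was the highest for both. Without the 7 cells Prlr still had a log2 ratio of -3.30, in place of -5.37, and Ly6d had -0.54 in place of -5.34. At least 3 milk protein genes were found in 4 of 35 early cells (11.4%, interval 3.20 to 26.7%), which were cells 120, 135, 150 and 155, and in 0 of 23 late cells. Csn1s1, a casein, had 698 reads in early and 0 in late cells, at least 111-fold lower against the floor, and 6.40% of its early sum lay in the 7 cells. This bound describes the counting of reads and not the draw of cells. The milk protein list had a median of -3.11, or -4.21 with Csn1s1 at its bound, and -0.73 as a difference of mean logs. Its early summed level of 421 CPM was 173 CPM without cell 155. At least 3 of 7 pan-luminal genes were found in 3 of 35 early and 5 of 23 late cells (21.7%, interval 7.46 to 43.7%). Of the 5 compared, 1 was at least 2-fold higher and 2 lower in late. Without the 7 cells 2 of 4 were higher and 0 lower. Lcn2, an iron-binding protein and the 1 luminal progenitor gene compared, had medians of 823 and 2675 CPM. Of all 8 genes of that list, 2 had no read in early cells and 4 had none in late cells.

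Genes of fat and vessels were traced to few cells. Fabp4, the fatty acid carrier of adipocytes and capillaries, had means of 1858 and 77.6 CPM, and 70.2% of its early sum lay in the 7 cells, led by cell 169 with 24051 CPM. Without these cells its early mean was 693 CPM. It was the 1 adipocyte gene compared, and 5 of 8 adipocyte genes had no read in early cells. Of the endothelial genes, Pecam1 and Egfl7 were compared, and each was at 100 CPM in 2 early and 0 late cells. For Egfl7, 95.9% of the early sum lay in the 7 cells, and without them its log2 ratio was -0.84 in place of -4.09. For Pecam1 only 4.32% lay in these cells, and without them its log2 ratio was -4.21. Of the pericyte list Mcam was compared, at 63.0 CPM in early and 228 CPM in late cells. The summed pericyte level of late cells, 249 CPM, was 118 CPM without cell 190. No cell of either block had 3 of 8 endothelial, immune, pericyte, Schwann cell, adipocyte or blood genes at 100 CPM. The summed immune level was at most 68.1 CPM in early and 75.0 CPM in late cells, and blood genes were at or near 0 in both.

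Proliferation genes were found in a minority of early cells. At least 3 of 18 reached 100 CPM in 5 of 35 early cells (14.3%, interval 4.81 to 30.3%), led by cell 158 with 10 genes, and in 0 of 23 late cells. Of 5 genes compared, Mki67, Top2a and Cenpf were at least 2-fold lower and Mcm3 and Pcna higher in late, beside 33.6% and 25% of all genes. Mki67, a marker of cycling cells, was at 100 CPM in 5 early and 0 late cells. The 7 early cells of few core basal genes held 0.154% of its early sum, so this difference did not rest on them. For Mcm3, a subunit of the replicative helicase, the log2 ratio of 2.17 was -0.08 without the highest cells. The list median was -2.62, or -3.15 with Cenpf at its bound, and -0.62 as a difference of mean logs.

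Of the remaining lists, several had no gene at least 2-fold higher. Their counts are read beside the 25% of all genes that were 2-fold higher and the 33.6% that were lower. Of 8 interferon genes, 4 were at least 2-fold lower, Ifit1, Gbp2 and H2-D1 among them, and 0 higher. Without the 7 early cells 2 of 7 were lower and 0 higher. Gbp2, a guanylate-binding protein, and the class I gene H2-D1 had log2 ratios of -3.15 and -1.53, which were -1.02 and -0.60 without the 7 cells. Of 12 NF-kB targets, Relb and, through 1 late cell, Cxcl2 were higher and Ccl2, Il6 and Nfkb1 lower. Of the early sum of Il6, an inflammatory cytokine, 96.5% lay in the 7 cells, with the highest level in cell 120, and its log2 ratio was -1.23 without them in place of -5.14. Of 6 WAP-domain and defence genes, Slpi, by which the break was chosen in part, was higher. Wfdc18 was lower, with 385 early and 0 late reads. Of 20 nuclear respiratory chain genes 0 were higher and 3 lower, and of 8 glycolysis genes 0 and 3. Of 16 translation factors 1 was higher and 1 lower, and of 15 splicing genes 2 and 2. Of 10 cholesterol and lipid synthesis genes 1 was higher and 4 lower, and of 13 S100 and cytoskeletal genes 1 and 1. Of 4 nuclear-retained RNAs, Neat1 was higher and Meg3 and Kcnq1ot1 lower, while Malat1 had medians of 27008 and 38657 CPM. For Nfkb1 and Jag2 the log2 ratios were -0.77 and -0.65 without the 7 cells, short of 2-fold, in place of -2.01 and -3.27. For Hsph1, Fbln1 and Lum they were -1.10, -1.20 and -1.45, and for Egr1 and Id1 1.63 and 2.44.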

How the data were processed

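Each GEO sample was 1 cell. Per the labels, the libraries were made on the Fluidigm C1 with Nextera XT. The study's methods say that the authors aligned the reads to the mm10 genome and assigned them to RefSeq genes with featureCounts. The submitters' processing notes name Subread 1.5.0. The strand setting is not given in the sources used here. The deposited values are whole-number counts of read pairs, called reads here, per Entrez gene ID and cell, not normalized. Of 27179 IDs, 25275 were paired with a symbol. The other 1904, with 1.66% of all reads, were left out, as were 15 mitochondrial and 123 ribosomal protein genes, which left 25137 genes. CPM is the count per 1000000 of the remaining reads of a cell. No 2 cells held identical counts. Cells of a block are not replicates and the labels name 0 animals, so the design allowed no test, and the planned comparison is of means over cells, as log2(CPM + 10) of the block means. Shares carry exact Clopper-Pearson intervals, sums exact Poisson intervals and medians binomial rank intervals, all at 95%.

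Genes were named if they had at least 1 read after thinning to 50000 reads in at least 25% of the cells of the higher block and a mean of at least 50 CPM there. The log2 ratio, its value without the highest cell of each block and the difference of mean log2(CPM + 10) had to share their sign. The 15 genes per direction were taken whose smaller absolute value, of the ratio without the highest cells and the difference of mean logs, was largest. Slpi, Krt17 and the genes of 39 lists (541 of 548 symbols matched) were described besides. A few genes are not reported here. The cells and the lists were chosen with earlier results of these data known. Promoter windows come from RefSeq on GRCm38.p6. The computation was tested on simulated counts. Python 3.11.15, numpy 2.4.6, pandas 2.3.3, scipy 1.17.1 and matplotlib 3.10.9 were used.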

Additional observations from a re-analysis of the deposited data

Results flagged for a closer look

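The cells left out for low depth or few genes entered no comparison, and their summed reads still held both genes. In the 22 early cells left out, Slpi had 143 reads, or 425 CPM of the summed reads (Poisson interval 358 to 500 CPM), and Krt17 was at 327 CPM (interval 269 to 394 CPM). In the 45 late cells left out, Slpi had 1818 reads, or 4750 CPM (interval 4534 to 4974 CPM), and Krt17 was at 1186 CPM (interval 1079.6 to 1301 CPM). Both genes were higher in the late sums, as in the retained cells. Of the genes named as higher in late, 12 of 15 had the same direction in the cells left out, the exceptions being Fhod3, Lmod1 and Pde4b. The 12 include Slpi, by which the break was chosen in part. Of those named as lower, 13 of 15 had it, the exceptions being Tmem263 and Cd36. The share of all genes with the same direction was not computed. Some of these matches were small, with overlapping intervals, such as Cacna2d1 (log2 ratio 0.14), Dkk3 (0.19), Ssr3 (-0.15) and Cct8 (-0.34). Others drew mostly on 1 cell, such as Paf1 with 72 of 82 late reads and Rab20 with 17 of 19. The difference between the sums was not tested, and the cells left out share their block with the retained ones.

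Gene IDs that could not be paired with a symbol were not analysed either. They took 1.51% of all reads in retained early cells and 1.97% in retained late cells.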

How the results depend on the processing

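The 30 named genes kept their direction under every alternative tried. The choice of genes fixed this for the mean logs and the values without the highest cells. Pseudocounts of 1 and 100 CPM could not change it either, since a pseudocount leaves the sign of a ratio as it is. The other alternatives reused cells from which the genes were picked. Of the 30 genes, 27 stayed at least 2-fold apart. The exceptions, Cacna2d1 (0.36), Fos (0.48) and Cct8 (-0.91), fell short with at least 100000 reads and 1500 genes per cell, which left 21 early and 8 late cells. Counts of genes depended strongly on the measure. The 520 genes at least 4-fold higher became 36 with a pseudocount of 100 CPM, 34 as a difference of mean logs and 153 without the highest cells. The 823 genes at least 4-fold lower became 45, 16 and 451, and 1403 in the deeper cells. The median absolute log2 ratio of 1.26 was 1.90 in the deeper cells, 1.18 with at least 20000 reads and 500 genes, 1.39 in cells under 25% mitochondrial reads, 1.42 and 0.59 with pseudocounts of 1 and 100 CPM, 0.42 as mean logs, 1.32 from summed reads, 0.90 without the highest cells, 1.13 with genes of at least 10 CPM and 0.057 over all genes. At a level of 10 CPM, Slpi was present in 65.7% of early and 100% of late cells, Krt17 in 82.9% of early cells, and at least 6 core basal genes in 94.3% of early cells. At 500 CPM, Krt17 was present in 73.9% of late cells, and core basal genes in 57.1% of early and 82.6% of late cells. Without the 7 cells of few core basal genes, the early shares were 78.6% for Krt17 and, by construction, 100% for core basal genes. Krt17 was present in 100% of late cells in the deeper set. Genes per cell were 1705 early and 1470 late at 20000 reads, and 2992 and 2513 without thinning. Over all genes the list medians of the pericyte and adipocyte lists turned to -0.0093 and 0. Of 37 list medians, 18 kept 1 sign throughout. Of 102 alternatives of the 11 main results, 71 moved them by less than their limit. Where a value moved, the cause was not tested. No paired analysis was possible because the design held 1 sample per block and no test. Depth limits what absent reads mean, since retained cells had as few as 51464 assigned reads.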

Other observations

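Among the 81 retained marked cells, low levels of Slpi were most common at the highest cell numbers, a pattern seen after the values were examined and not tested. Slpi was below 100 CPM in 11 of these cells. Of the 16 retained cells numbered 88 to 105, 8 were below that level, beside 3 of the 65 with lower numbers. Cells 88, 100, 102 and 105 had 0 CPM of Slpi, while cells 89 and 90 had 18918 and 25825 CPM. Krt17 in these 16 cells ranged from 0 CPM in cells 96 and 100 to 11715 CPM in cell 89. The number of genes named as higher minus those named as lower in late was -6 in cells 97 and 105 and 9 in cells 88, 89 and 92. The cells numbered 113 and above that follow them are the early block.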
